A study of Mus musculus with 12 samples.

Results

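Lipocalins are small secreted proteins that fold into a barrel and carry fat-soluble molecules. The genes described here are Lcn13, Rbp4 and 4 genes of the major urinary protein family, Mup3, Mup17, Mup20 and Mup21, found by symbol among the 37991 genes of the deposited table. All 6 of the 6 listed symbols were present, and all 6 passed the filter on low values, Lcn13 chiefly through the libraries labelled KO. They were selected on their values in an earlier look at these libraries, chiefly the genotype difference in solvent-treated cells, in which Lcn13 and Mup17 had been singled out. Their levels in that comparison are therefore given as a description with no test. The comparison of genotypes under SR9009 uses other libraries, and it and the SR9009 comparisons were tested. Those libraries carry the same genotypes, and the labels do not say whether they share mice with the DMSO libraries. The tests of members between genotypes are therefore not independent of how the members were chosen.

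Major urinary proteins are made by the liver, pass into the urine and hold volatile pheromones, and in mice they are known for higher levels in males, under the control of pulsed growth hormone. Mup20 encodes darcin, a pheromone of male urine. Lcn13 (named Obp2a in newer annotation) encodes a lipocalin that hepatocytes can secrete. Rbp4 encodes the retinol-binding protein of plasma, which leaves the liver bound to transthyretin.

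The libraries came from plated hepatocytes of 10-week-old male mice, taken 2 weeks after an AAV8 virus was given. All of the mice had floxed alleles of Nr1d1 and of Nr1d2, the genes of the receptors REV-ERBα and REV-ERBβ, and in all of them the virus expressed GFP from the TBG promoter, which is active in hepatocytes. The virus added Cre in the KO-labelled mice and not in the controls, and there was no group with Cre but without loxP sites, so the action of Cre itself and the loss of REV-ERB cannot be told apart. The cells were kept for 8 h in DMSO, the solvent, or in 10 µM SR9009, a synthetic compound described as a REV-ERB agonist. This gave 4 groups of 3 libraries, control and KO-labelled cells in DMSO and the same genotypes in SR9009. Whether the 3 replicates came from separate mice is not in the labels, so the tests measure the spread between libraries, part or all of which could be technical.

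Levels are FPKM, fragments scaled to transcript length and library size, so they can be compared between genes. At least 1 FPKM was reached by 10611 to 10932 genes per library. The relative depth, read from the smallest steps between values, was 55.5% to 100% of the deepest library. Control SR9009 replicate 1 and KO-labelled DMSO replicate 1 were the shallowest. Summed over the gene models, Nr1d1 stood at 17.4 to 19.0 FPKM in DMSO in both genotypes and Nr1d2 at 13.9 to 17.4 FPKM. A whole gene model that includes exons outside the loxP sites does not check a deletion. Arntl, a clock gene repressed by REV-ERB, was at 0.117 to 0.391 FPKM in the control libraries and 4.99 to 6.85 FPKM in the KO-labelled ones. Hepatocyte markers were high in all libraries, with 6 genes summing to 27680 to 35100 FPKM. The 7 Kupffer cell markers in the table summed to 24.1 to 31.6 FPKM in control and 9.79 to 15.6 FPKM in KO-labelled libraries, and 4 cholangiocyte markers to 2.87 to 4.91 and 8.09 to 12.04 FPKM. The 6 endothelial markers summed to 5.43 to 6.95 FPKM in control and 8.27 to 12.8 FPKM in KO-labelled libraries. None of these markers was at 0 throughout. Their part in the results below was not tested. In bulk samples, fewer cells of a type and less RNA per cell cannot be told apart.

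Lcn13 was close to absent in control hepatocytes and well expressed in KO-labelled ones. In control DMSO it stood at 0.95, 0.39 and 0.489 FPKM, and in control SR9009 at 1.89, 0.973 and 1.06 FPKM. In KO-labelled DMSO it stood at 35.3, 38.5 and 30.8 FPKM, and in KO-labelled SR9009 at 35.4, 31.9 and 31.6 FPKM. Every KO-labelled library was above every control library. The mean in DMSO was 0.61 ± 0.299 FPKM in control and 34.9 ± 3.84 FPKM in KO-labelled cells (SD, n = 3), a ratio of 57.2. Under SR9009 it was 1.31 ± 0.505 against 33.0 ± 2.11 FPKM, a ratio of 25.2, and the log2 difference was 3.90 (SE 0.158, limma, adjusted p = 7.23e-09). The size of this log2 difference depends on the pseudocount, and it was 2.59 with a pseudocount of 5 and 4.61 with 0.1.

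The second comparison for Lcn13 asked whether SR9009 itself moved it. In control cells the 3 SR9009 libraries were above the 3 DMSO libraries by a narrow gap, 0.973 against 0.95 FPKM. The ratio of the means was 2.14, and the log2 difference of 0.51 (SE 0.158) missed the threshold with an adjusted p of 0.0693 in the limma fit. It passed with a pseudocount of 0.1 (adjusted p = 0.0428) and without control DMSO replicate 1 (adjusted p = 0.0366), and over the alternatives the adjusted p ran from 0.0349 to 0.269. Control SR9009 replicate 1, which has the highest of these values, is also the shallowest library. For a transcript of 1 kb, the smallest step between values was 0.0186 to 0.0336 FPKM, so the control levels of Lcn13 were above the level of single fragments. In KO-labelled cells the SR9009 and DMSO libraries overlapped (log2 difference -0.07, adjusted p = 0.841), and the difference between the SR9009 effects of the genotypes did not pass (log2 -0.59, adjusted p = 0.643).

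**Figure D1:**
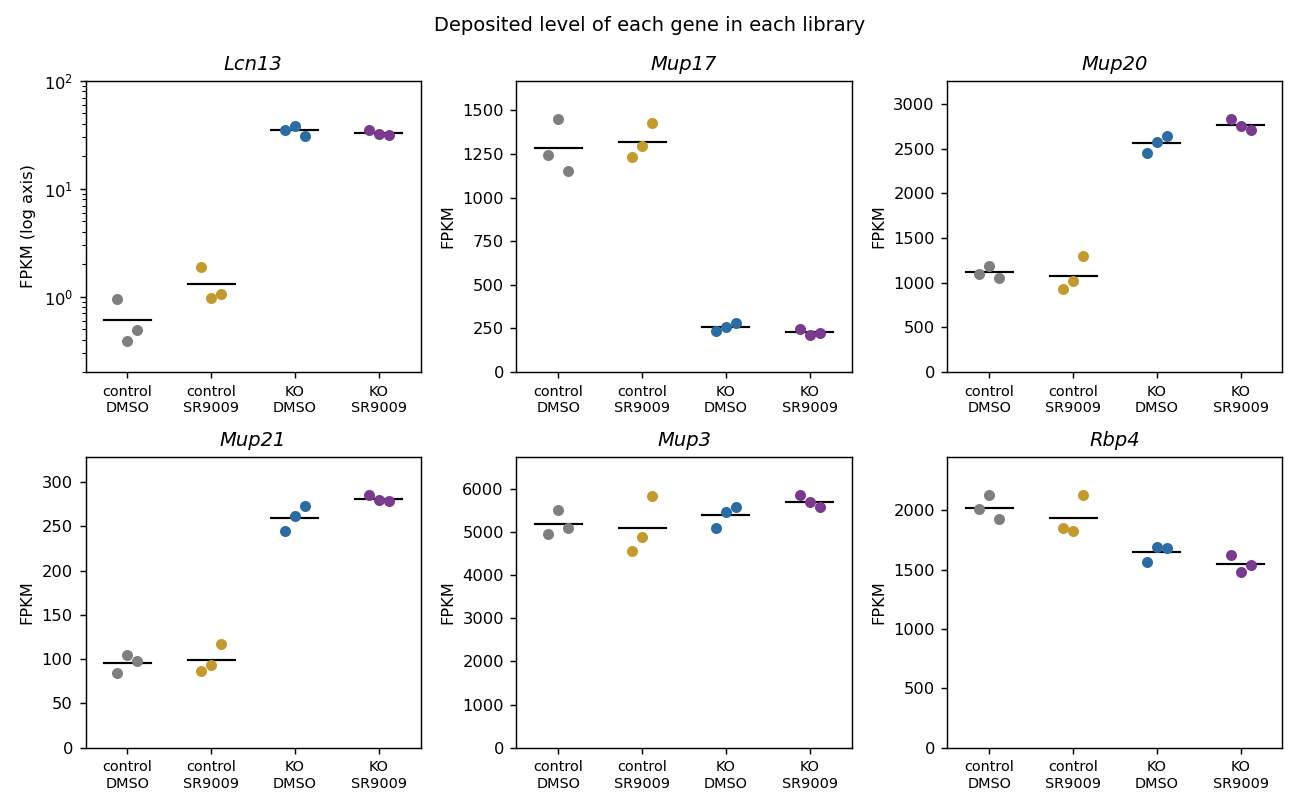
Each point is 1 library, and each black line is the mean of the 3 libraries of a group, in FPKM as deposited. The axis of Lcn13 is logarithmic and the others start at 0. Lcn13, Mup20 and Mup21 lie higher and Mup17 lower in all 6 KO-labelled libraries, Rbp4 is lower by a small step, and the groups of Mup3 overlap.

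Lcn13 (ENSMUSG00000062061) lies on chromosome 2, at 25555563 to 25558846 of mm9 on the plus strand, in a row of lipocalin genes. No other gene model of the table overlapped it. Of the 10 other Lcn rows besides Lcn2, 6 were listed at 0 in every library, and the highest value of any of them in any library was 0.354 FPKM. Those within 250 kb, Lcn8, Lcn5, Lcn6, Lcn10, Lcn14, Lcn3, Lcn11, Lcn9 and Lcn12, were among these low rows. Among the 36 other rows within 250 kb, 11 were tested. Under SR9009, 2 of these 11 were called higher in KO-labelled cells and none lower, beside 12.9% of all genes called higher, and in DMSO 1 of the 11 (Fbxw5) was called higher. Fbxw5, an F-box protein, went from 17.2 to 19.9 FPKM (log2 difference 0.20, adjusted p = 0.0298), and Traf2, an adaptor of cytokine receptors, from 11.2 to 13.4 FPKM (log2 difference 0.24, adjusted p = 0.0385). No other tested row in the window came near the size of the Lcn13 difference.

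The start of Lcn13 is shown because it is the start of the gene with the largest genotype ratio here. The stretch is the 150 bases before the start of the RefSeq gene (build GRCm38.p6, chr2:25699924-25700073, plus strand), where capitals mark TATAA on the printed strand and AGGTCA on either strand.
Lcn13: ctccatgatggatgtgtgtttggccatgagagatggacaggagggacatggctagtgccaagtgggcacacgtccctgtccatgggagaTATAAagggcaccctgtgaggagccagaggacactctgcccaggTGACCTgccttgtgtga
TATAA was found at positions -61 to -57 from the start, and AGGTCA, the core letters bound by many nuclear receptors, at -17 to -12 on the opposite strand. Of 32851 promoter stretches of this length in the table, 9.99% held TATAA as printed and 8.58% held AGGTCA on either strand. The longer REV-ERB and ROR element, searched by the name RORE on both strands and found in 0.216% of the stretches, had no match in this window. A match in letters is a description and not a binding site.

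Mup17 was the member that stood lower in KO-labelled cells by the largest ratio. Its levels were 1245, 1451 and 1150 FPKM in control DMSO and 1235, 1297 and 1427 FPKM in control SR9009. In KO-labelled DMSO they were 237, 258 and 279.5 FPKM, and in KO-labelled SR9009 247, 211 and 222 FPKM. No library of one genotype reached the range of the other. In DMSO the mean was 1282 ± 154 FPKM in control and 258 ± 21.2 FPKM in KO-labelled cells (SD, n = 3), 4.96 times lower. Under SR9009 the means were 1319 ± 98.0 and 227 ± 18.7 FPKM, 5.82 times lower, with a log2 difference of -2.54 (SE 0.0948, adjusted p = 4.81e-09).

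Mup20 and Mup21 moved the other way. Mup20, the darcin gene, was at 1101, 1186 and 1057 FPKM in control DMSO, 935, 1015 and 1295 FPKM in control SR9009, 2455, 2581 and 2649 FPKM in KO-labelled DMSO and 2834, 2760 and 2713 FPKM in KO-labelled SR9009. The ratio of KO-labelled to control means was 2.30 in DMSO and 2.56 under SR9009, where the log2 difference was 1.37 (SE 0.0962, adjusted p = 7.96e-07). Mup21 was at 84.6, 104 and 98.0 FPKM in control DMSO, 87.1, 93.0 and 118 FPKM in control SR9009, 245, 262 and 273 FPKM in KO-labelled DMSO and 286, 280 and 278 FPKM in KO-labelled SR9009. Its ratio was 2.72 in DMSO and 2.84 under SR9009 (log2 difference 1.51, SE 0.103, adjusted p = 6.25e-07). For both genes the genotypes were fully separated in both media. Mup20 was the more abundant, with a mean of 2769 ± 61.0 FPKM in KO-labelled SR9009 against 281 ± 3.94 FPKM for Mup21 (SD, n = 3).

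Mup3 was the most abundant member, and its groups overlapped. It stood at 4960, 5510 and 5095 FPKM in control DMSO, 4559, 4880 and 5833 FPKM in control SR9009, 5100, 5466 and 5588 FPKM in KO-labelled DMSO and 5865, 5684 and 5571 FPKM in KO-labelled SR9009. The KO-labelled mean was 1.04 times the control mean in DMSO and 1.12 times under SR9009 (log2 difference 0.17, SE 0.0802, adjusted p = 0.156). This miss turned on single choices, since the difference passed after quantile normalization (log2 0.29, adjusted p = 0.00603) and without control SR9009 replicate 3 (log2 0.27, adjusted p = 0.00551).

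Rbp4 was slightly lower in KO-labelled cells. Its levels were 2013, 2130 and 1923 FPKM in control DMSO, 1853, 1822 and 2130 FPKM in control SR9009, 1566, 1688 and 1682 FPKM in KO-labelled DMSO and 1624, 1482 and 1541 FPKM in KO-labelled SR9009. The genotypes did not overlap in either medium. The KO-labelled mean was 0.814 of the control mean in DMSO and 0.80 under SR9009 (log2 difference -0.32, SE 0.0677, adjusted p = 0.00518). After quantile normalization the log2 difference was -0.05 with an adjusted p of 0.689, so this call depends on how the libraries were scaled. Rbp4 (ENSMUSG00000024990) lies on chromosome 19 at 38191110 to 38199811 of mm9, minus strand. Of 8 other rows within 250 kb, 1 was tested, and it did not pass in either genotype comparison.

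Under SR9009, then, 3 of the 6 members rose in KO-labelled cells (Lcn13, Mup20 and Mup21), 2 fell (Mup17 and Rbp4) and Mup3 did not pass. Over all 11213 tested genes, 12.9% were called higher and 7.43% lower in this comparison. The members were chosen chiefly for genotype differences, so their count is not weighed against these shares. In DMSO the shares were 11.7% higher and 8.32% lower, and since that comparison helped to choose the members nothing is read from their own count there. The split of calls depends on scaling. In numbers of genes it was 1450 higher and 833 lower under SR9009 and 1307 and 933 in DMSO, and with each library scaled to its median it was 1014 and 1098 under SR9009 and 1053 and 1108 in DMSO.

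None of the 6 members was called for SR9009 in either genotype. In control cells 3.69% of all genes were called higher and 4.55% lower, and in KO-labelled cells 5.32% and 4.56%. At an unadjusted p under 0.05, limma gave 1 member in control cells (Lcn13) and 0 in KO-labelled cells. The largest log2 difference of a Mup member was -0.19 in KO-labelled cells, for Mup17 (SE 0.0948, adjusted p = 0.27). In KO-labelled cells the SR9009 libraries of Mup20 and Mup21 all lay above the DMSO libraries, but by ratios of 1.08 for both (adjusted p = 0.536 and 0.553). The test of whether the SR9009 effect differs between genotypes called 0 members and 1 at an unadjusted p under 0.05 (Lcn13), beside 0.0178% of all genes higher and 0.00892% lower. The SR9009 comparisons share their DMSO libraries with the genotype comparison in DMSO and their SR9009 libraries with the one under SR9009.

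The rest of the Mup family was examined because its copies are close in sequence. The table held 42 Mup rows, pseudogenes included, of which 41 lie on chromosome 4 between 59969676 and 61811897 of mm9, a span of 1.84 Mb. Of the 42, 21 passed the filter. Of the others, 12 were listed at 0 in every library and none exceeded 1.02 FPKM in any. Under SR9009, 16 of the 21 tested rows fell in KO-labelled cells and 3 rose, beside 7.43% of all genes called lower and 12.9% higher. Most of these rows are near-identical copies that share fragments. They are therefore not separate observations, and their count is not weighed against these shares. The median log2 difference was -0.93, beside 0.06 over all tested genes. The 3 that rose were Mup-ps19, Mup20 and Mup21, and the 2 that did not pass were Mup3 and Mup-ps17, whose group means ran from 1.35 to 2.48 FPKM.

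Among the called rows, the direction split by position along the cluster. From Mup7 to Mup19 the 15 numbered rows of the tandem array, Mup17 included, were lower in KO-labelled cells, with log2 differences under SR9009 from -0.37 for Mup10 (adjusted p = 0.0475) to -2.54 for Mup17. Mup10 lost its call in 14 of its 21 alternatives. Next to Mup17 in size came Mup19, which fell from 1883 ± 65.1 to 516 ± 4.69 FPKM (log2 difference -1.86, adjusted p = 1.02e-09), and Mup8, which fell from 342 ± 56.2 to 97.1 ± 5.31 FPKM (log2 difference -1.79, adjusted p = 3.11e-07). The last 4 expressed rows, Mup-ps19, Mup20, Mup3 and Mup21, lie together within 194 kb, from 61618183 to 61811897, and all 4 had log2 differences above 0 in both media, from 0.05 for Mup3 in DMSO to 1.51 for Mup21 under SR9009. Mup3, which lies between Mup20 and Mup21, did not pass under SR9009, and Mup-ps19 is a close copy of Mup20. Mup-ps17, the tested row just before these 4, had log2 differences of 0.02 in DMSO and -0.64 under SR9009 and was not called. This grouping by position was made after the values were seen and was not tested. Of the 26 other rows in the cluster or within 250 kb of it, 9 were tested, and 1 rose and 1 fell in each medium. These counts are near the shares over all genes, 12.9% higher and 7.43% lower under SR9009 and 11.7% and 8.32% in DMSO. Fkbp15 rose from 4.65 to 6.38 FPKM under SR9009 (log2 difference 0.39, adjusted p = 0.00668), and Gm13775, which overlaps Mup-ps16 on the same strand, fell from 7.45 to 1.57 FPKM (log2 difference -1.72, adjusted p = 0.000215).

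**Figure D2:**
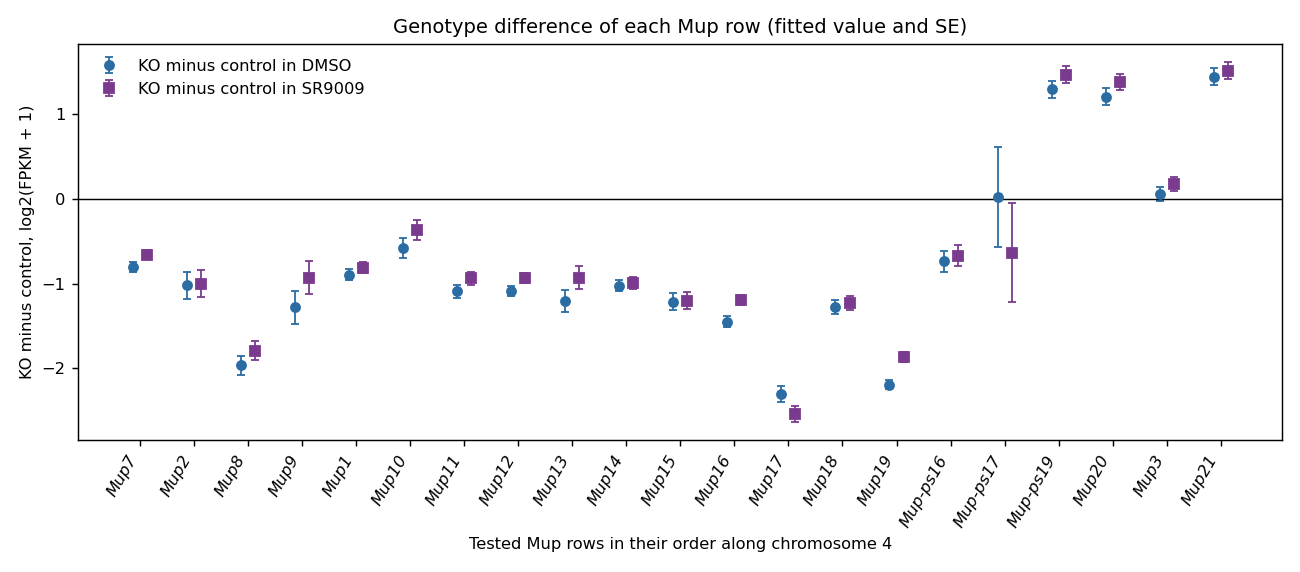
The 21 tested Mup rows are shown in their order along chromosome 4, spaced evenly, with the fitted log2(FPKM + 1) difference between KO-labelled (KO) and control cells in DMSO (circles) and in SR9009 (squares), and bars of 1 SE. Rows from Mup7 to Mup-ps16 lie below 0 in both media, and Mup-ps19, Mup20 and Mup21 lie above 1.

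How far a row can be told from its copies was measured on the GENCODE M21 transcripts, matched by symbol for 19 of the tested rows (Mup-ps16 and Mup-ps17 were not looked up), 16 of which also had the same gene ID. Mup17, Mup12 and Mup15 matched by symbol alone. Among the 15 numbered rows of the array, pairs of transcripts were 98.3% to 99.7% identical over their aligned bases. Mup20 was 90.6% to 91.2% identical to them, Mup21 86.7% to 87.7% and Mup3 83.8% to 87.2%. As a second measure, each transcript was read in windows of 50 bases, and the share of windows found in no other Mup transcript was counted. It was 85.1% for Mup3, 80.9% for Mup21 and 49.9% for Mup20. It was 21.9% for Mup17, the highest of the array, and 0.0% for Mup2, Mup15 and Mup19. Fragments from shared windows match several copies, so the levels of single array rows, Mup17 included, are uncertain, whereas Mup3 and Mup21 have mostly sequence of their own. Mup-ps19 was identical to Mup20 over all 519 aligned bases, gaps not counted, and 10.2% of its windows were in no other Mup transcript. The rise of this pseudogene row therefore largely cannot be told apart from that of Mup20. The 2 rows summed went from 1464.7 ± 240 to 3820.5 ± 144 FPKM under SR9009, a ratio of 2.61. Mup14 and Mup15 also overlap as gene models by 3979 bases, and Mup2 and Mup7 by 3089 bases.

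**Figure D3:**
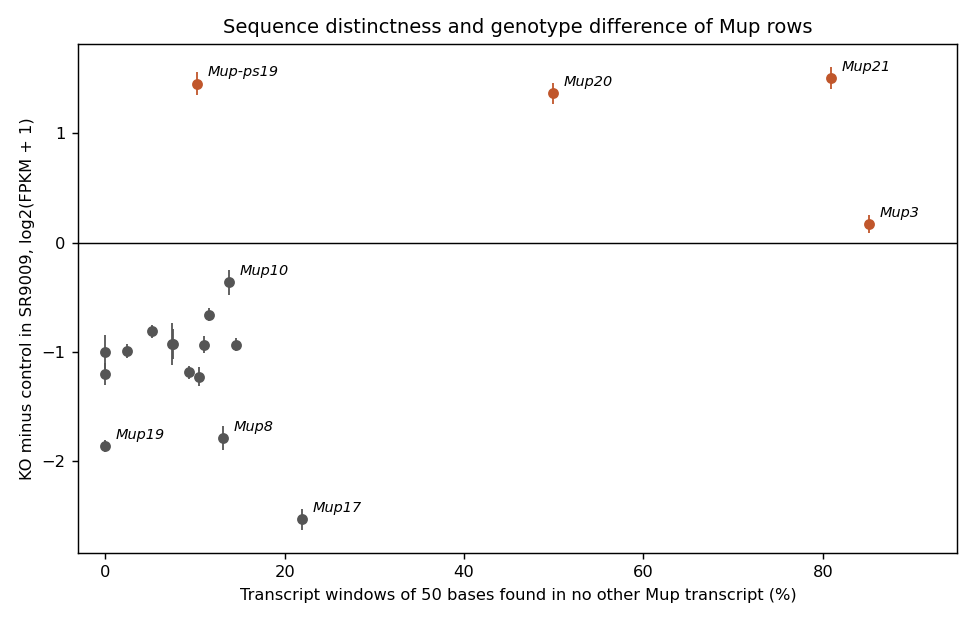
Each point is a tested Mup row, placed by the share of its 50-base transcript windows that occur in no other Mup transcript (x axis, percent) and by its fitted log2(FPKM + 1) difference between KO-labelled (KO) and control cells under SR9009 (y axis, bars of 1 SE). The rows of the array (grey) lie at 21.9% or less and below 0, and the last 4 rows of the cluster (orange) lie above 0, among them Mup3 at 85.1% and Mup21 at 80.9%.

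The starts of Mup17, Mup3 and Mup21 are printed because these genes share much of their upstream sequence, while Mup17 fell, Mup21 rose and Mup3 did not pass under SR9009. Each stretch is the 150 bases before the RefSeq start (build GRCm38.p6, minus strand, chr4:61595833-61595982 for Mup17, chr4:62087318-62087467 for Mup3 and chr4:62150842-62150991 for Mup21), written in the direction of transcription with TATAA in capitals.
Mup17: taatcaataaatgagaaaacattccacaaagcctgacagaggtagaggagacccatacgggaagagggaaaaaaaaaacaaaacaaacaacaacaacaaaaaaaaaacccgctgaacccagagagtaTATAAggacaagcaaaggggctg
Mup3: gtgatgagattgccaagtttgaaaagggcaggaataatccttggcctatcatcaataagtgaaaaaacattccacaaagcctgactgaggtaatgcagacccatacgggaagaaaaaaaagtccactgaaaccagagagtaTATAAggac
Mup21: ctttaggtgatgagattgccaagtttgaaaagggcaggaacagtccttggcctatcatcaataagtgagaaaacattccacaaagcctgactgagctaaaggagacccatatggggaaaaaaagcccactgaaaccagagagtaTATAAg
TATAA stood at positions -23 to -19 in Mup17, -9 to -5 in Mup3 and -6 to -2 in Mup21. The letters just before it were the same in all 3, so these positions depend on where RefSeq placed each start. Aligned over their shared bases, Mup3 and Mup21 were 93.8% identical, and Mup17 was 89.2% identical to Mup3 and 89.6% to Mup21. Mup17 and Mup19 were 100% identical over 143 aligned bases. Neither AGGTCA nor RORE nor TTCNNNGAA, the core letters of STAT sites (both strands, in 4.09% of all stretches), was found in these 3 windows. The Mup20 start was not in the table used here.

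The summed level of all 42 Mup rows depends less on how fragments were divided between the copies. It was 38916, 42003 and 39590 FPKM in control DMSO, 37008, 40055 and 43124 FPKM in control SR9009, 24134, 25077 and 25994 FPKM in KO-labelled DMSO and 27925, 27221 and 26958 FPKM in KO-labelled SR9009. All KO-labelled libraries were below all control libraries. Against control cells, the KO-labelled sum differed by -37.6% in DMSO and by -31.7% under SR9009, with an exact two-sided permutation p of 0.1 for the latter, the smallest that 3 against 3 libraries can give. Fitted as 1 row among all genes, the sum had a log2 difference of -0.55 under SR9009 (SE 0.0567, adjusted p = 2.44e-05). As a share of all FPKM in a library, the Mup rows took 6.60% to 7.30% in control and 4.48% to 5.01% in KO-labelled cells. Between SR9009 and DMSO the sum differed by 9.17% in KO-labelled cells (exact permutation p = 0.1, adjusted p = 0.204 in the fit) and by -0.27% in control cells (exact permutation p = 1.0).

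Within the sum, the weight shifted to the end of the cluster. The last 4 rows held 15.8% to 17.8% of it in control libraries and 35.4% to 36.9% in KO-labelled ones. Under SR9009 they went from 6654.9 ± 918 to 9808.5 ± 296 FPKM, while the other 16 rows with a mean of at least 1 FPKM went from 33404 ± 2200 to 17558 ± 206 FPKM. Mup20 alone went from 2.69% ± 0.273 to 10.1% ± 0.0468 of the sum, and Mup3 from 12.7% ± 0.739 to 20.8% ± 0.17. The level of Mup3 itself was 5091 FPKM in control SR9009 and 5707 FPKM in KO-labelled SR9009 and did not pass (limma, adjusted p = 0.156). A larger share of a smaller sum is thus not a called rise of Mup3. The 4 Mup members taken alone summed to 18.3% more, not less, in KO-labelled SR9009 than in control SR9009, so they do not stand for the family.

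**Figure D4:**
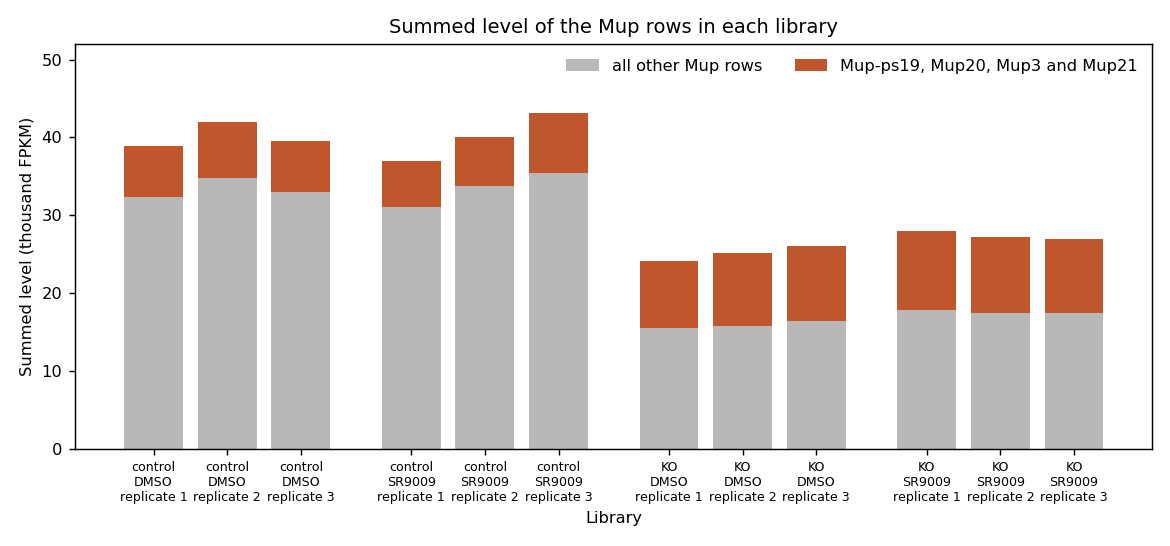
Bars show the summed FPKM of all Mup rows (axis in units of 1000 FPKM) in each of the 12 libraries, split into the last 4 expressed rows of the cluster (orange) and all others (grey). Under SR9009 the grey part averages about 33404 FPKM in control and 17558 FPKM in KO-labelled (KO) libraries, and the orange part is taller in every KO-labelled library of both media.

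For SR9009 in KO-labelled cells, 1 of the 21 tested Mup rows was called higher and none lower, beside 5.32% of all genes called higher, so the count is near that of all genes. The row was Mup19, which went from 394, 386 and 443 FPKM in KO-labelled DMSO to 511, 521 and 516 FPKM in KO-labelled SR9009 (log2 difference 0.34, adjusted p = 0.00268). In control cells it was at 1861 ± 59.2 and 1883 ± 65.1 FPKM (log2 difference 0.02, adjusted p = 0.909), and the difference between these effects did not pass (log2 0.33, adjusted p = 0.372). In KO-labelled cells 4 of the 21 rows, Mup7, Mup10, Mup16 and Mup19, had an unadjusted p under 0.05 in the limma fit. None was called in control cells, where 0 had an unadjusted p under 0.05. After quantile normalization Mup3 and Mup17 were called in KO-labelled cells too. Mup19 has no window of its own sequence by the count above.

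Other lipocalins of the liver mostly stood lower in KO-labelled cells. Of the 8 in the list, 6 were tested, and under SR9009 4 fell and none rose, with a median log2 difference of -0.28. Over all genes, 7.43% were called lower and 12.9% higher. The 4 were the orosomucoids Orm1, Orm2 and Orm3, acute-phase plasma proteins that are themselves close copies, and Ambp, the precursor of alpha-1-microglobulin. Orm1 fell from 1586 ± 183 to 1198 ± 42.9 FPKM (log2 difference -0.40, adjusted p = 0.0019), and Orm3 from 28.9 ± 6.90 to 14.3 ± 1.54 FPKM (log2 difference -0.94, adjusted p = 0.000792). Orm2 had a log2 difference of -0.47 (adjusted p = 0.003). Ambp had one of -0.16 (adjusted p = 0.0379), and it lost the call in 11 alternatives and turned to 0.06 after quantile normalization. Apom, which carries sphingosine 1-phosphate in plasma, was at 118 ± 17.6 and 113 ± 4.99 FPKM, and C8g, a chain of complement component 8, at 177 ± 15.0 and 195 ± 8.87 FPKM, and neither passed.

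Lcn2, an iron-scavenging lipocalin of the acute phase, was the one other Lcn row that was expressed. It was at 2038, 1591 and 1558 FPKM in control DMSO, 1515, 1183 and 1661 FPKM in control SR9009, 1225, 1040 and 1111 FPKM in KO-labelled DMSO and 592, 684 and 603 FPKM in KO-labelled SR9009. The genotypes were separated in both media. Under SR9009 the log2 difference was -1.20 (adjusted p = 4.01e-05). In KO-labelled cells SR9009 lowered it (log2 difference -0.84, adjusted p = 0.00175), while in control cells the value was -0.25 (adjusted p = 0.289) and the difference between the 2 effects did not pass (adjusted p = 0.599).

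Retinol handling was examined beside Rbp4. Of the 10 tested genes of that list, 2 rose and 4 fell in KO-labelled cells under SR9009. Their median log2 difference was -0.12, and over all genes 12.9% were called higher and 7.43% lower. Ttr, transthyretin, the plasma partner of Rbp4, went the other way from it, from 2473 ± 318 to 3010 ± 45.2 FPKM (log2 difference 0.29, adjusted p = 0.0197), a call that was lost in 7 alternatives. 1300002K09Rik rose from 27.1 ± 5.60 to 42.0 ± 4.58 FPKM (log2 difference 0.63, adjusted p = 0.00389). Cyp26a1, which breaks down retinoic acid, fell from 6.92 ± 0.65 to 0.953 ± 0.346 FPKM (log2 difference -2.03, adjusted p = 2.25e-06). Aldh1a1, which makes retinoic acid from retinal, fell from 304 ± 5.09 to 189 ± 7.13 FPKM (log2 difference -0.68, adjusted p = 2.39e-06), and Bcmo1, which cleaves beta-carotene, fell from 30.7 ± 1.07 to 23.2 ± 1.19 FPKM (log2 difference -0.39, adjusted p = 0.000328). The remaining gene that fell was Rdh16, a retinol dehydrogenase (log2 difference -0.41, adjusted p = 0.00485). SR9009 moved 2 of the 10 in control cells, beside 3.69% of all genes called higher and 4.55% lower. It raised Cyp26a1 from 3.25 to 6.92 FPKM (log2 difference 0.90, adjusted p = 0.00496). It lowered Bcmo1 from 41.5 to 30.7 FPKM (log2 difference -0.43, adjusted p = 0.000698). In KO-labelled cells it lowered 1 of the 10, Bcmo1 (log2 difference -0.65, adjusted p = 2.21e-05), beside 4.56% of all genes called lower.

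Genes with a sex bias in liver did not move as one set. Of 12 tested male-biased genes, 4 rose and 2 fell in KO-labelled cells under SR9009, with a median log2 difference of 0.14. The shares over all genes were 12.9% higher and 7.43% lower. Selenbp2, a selenium-binding protein, rose from 77.3 ± 6.58 to 211 ± 19.7 FPKM (log2 difference 1.44, adjusted p = 7.13e-06). Cyp7b1, an oxysterol hydroxylase, rose from 55.5 ± 1.53 to 95.9 ± 1.36 FPKM (log2 difference 0.78, adjusted p = 4.02e-07), and Slco1a1, an organic anion uptake transporter, from 48.8 ± 4.39 to 77.4 ± 2.91 FPKM (log2 difference 0.66, adjusted p = 4.67e-05). Cyp4a12a, a fatty acid hydroxylase, fell from 79.4 ± 6.13 to 37.5 ± 2.20 FPKM (log2 difference -1.06, adjusted p = 2.72e-07). Of the female-biased list, 1 of 14 rows was expressed enough to be tested. This was Cyp2a4, a steroid hydroxylase with close copies, at 0.317, 1.45 and 1.05 FPKM in control SR9009 and 13.8, 11.7 and 12.5 FPKM in KO-labelled SR9009 (log2 difference 2.87, adjusted p = 7.09e-07).

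Among 9 genes of growth hormone signalling, 2 rose in KO-labelled cells under SR9009 and none fell, with a median log2 difference of 0.17. Over all genes, 12.9% were called higher and 7.43% lower, and nothing is read from a count this small. Socs2, a growth hormone target that damps the receptor, rose from 6.83 ± 0.722 to 11.6 ± 0.914 FPKM (log2 difference 0.68, adjusted p = 0.00055). Igfals, which holds IGF1 in plasma complexes, rose from 2.83 ± 0.102 to 5.11 ± 0.481 FPKM (log2 difference 0.67, adjusted p = 0.000476). SR9009 lowered 2 of the 9 in control cells, beside 4.55% of all genes called lower. They were Socs2 (log2 difference -0.72, adjusted p = 0.00143) and Stat5b (log2 difference -0.33, adjusted p = 0.046), which lost its call in 14 alternatives. In KO-labelled cells it lowered 1 of the 9, Socs2 (log2 difference -0.49, adjusted p = 0.0109), beside 4.56% of all genes. Of the 7 tested hepatocyte transcription factors, 3 fell in KO-labelled cells under SR9009, beside 7.43% of all genes called lower. For 1 of the 7 the result is not reported here. Cebpa, Foxa2 and Nr3c1 did not pass in the limma fit (adjusted p = 0.349, 0.77 and 0.906). Cebpb fell from 114 ± 8.58 to 68.0 ± 8.05 FPKM (log2 difference -0.75, adjusted p = 4.26e-05). Zhx2, a repressor of several fetal and sex-biased liver genes, fell from 6.61 ± 0.498 to 4.68 ± 0.413 FPKM (log2 difference -0.42, adjusted p = 0.0101). Hnf4a fell from 193 ± 21.03 to 150 ± 20.2 FPKM (log2 difference -0.37, adjusted p = 0.0143). Its groups overlapped, and it lost its call in 5 alternatives. In DMSO Hnf4a was not called between genotypes (log2 difference -0.17, adjusted p = 0.246). SR9009 lowered it in control cells (log2 difference -0.40, adjusted p = 0.0225, lost in 7 alternatives) and in KO-labelled cells (log2 difference -0.60, adjusted p = 0.00173). Cebpa was also lowered by SR9009 in control cells (log2 difference -0.25, adjusted p = 0.0192, lost in 5 alternatives). In KO-labelled cells SR9009 lowered Cebpa (log2 difference -0.21, adjusted p = 0.0366, lost in 12) and Cebpb (log2 difference -0.32, adjusted p = 0.0287, lost in 10). Foxa2, Nr3c1 and Zhx2 were not called for SR9009 in either genotype. The member results stand beside these values, and no relation between them was tested.

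Across the 12 libraries, the members other than Mup3 fell into those that were high with KO labels and those that were low. The log2 values of Mup20 and Mup21 correlated with r = 0.995, those of Lcn13 with Mup21 at 0.971 and with Mup20 at 0.967, and those of Lcn13 with Mup17 at -0.988. Mup3 correlated with Lcn13 at 0.464. These are descriptions over 12 libraries that form 4 groups, and all of these genes but Mup3 share the genotype step. The 12 include the DMSO libraries whose genotype difference helped to choose the members, so these values partly restate that choice. For the genes most like each member, means under SR9009 are given for control and then KO-labelled cells. Those most like Lcn13 in pattern were Tars, a threonyl-tRNA synthetase (r = 0.995, 83.3 to 141 FPKM), Cyp17a1, a steroid hydroxylase (r = 0.994, 0.298 to 6.64 FPKM), and Itih1, a plasma protein that binds hyaluronan (r = 0.993, 153 to 232 FPKM). Those most like Mup17 were Fgl1, a fibrinogen-like secreted protein (r = 0.997, 375 to 108 FPKM), Acaa1b, a peroxisomal thiolase (r = 0.996, 612 to 159 FPKM), and Retsat, retinol saturase (r = 0.996, 103 to 50.6 FPKM). After Mup21, Mup20 was most like Bst2 (r = 0.99) and Htatip2 (r = 0.989), and Mup21, after Mup20, most like the protease gene Ctsl (r = 0.993) and the epoxide hydrolase gene Ephx1 (r = 0.992). Rbp4 was most like Hp, haptoglobin (r = 0.982, 3263 to 2721 FPKM), Ifitm2 (r = 0.975) and Gpx1 (r = 0.974). For Mup3 the highest values were lower, with Aadac at 0.907, Atp5f1 at 0.903 and Hamp2 at 0.899.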

How the data were processed

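Polyadenylated RNA of 12 libraries of mouse hepatocytes, 3 in each of 4 groups, was sequenced after ribosomal RNA depletion, per the labels' protocols. The submitters' processing notes name HISAT2, StringTie and mm9. No version, annotation or strand setting is given in the sources used here, so genes that overlap on opposite strands could not be separated. The authors deposited 1 table whose header names no unit, and FPKM was inferred from the values, since library sums differed and the steps between low values depended on gene length. Read totals are unknown. Relative depth was read from those steps.

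Values were transformed as log2(FPKM + 1), which understates changes of low genes. The 11213 genes that reached 1 FPKM in 3 or more libraries were tested with limma 3.58.1 in R 4.3.3, using trend and robust variance, 1 mean per group and all 12 libraries. Adjusted p-values are by Benjamini-Hochberg over all tested genes at 0.05. The fit was tested on simulated data. The summed Mup level had a two-sided exact permutation test (SciPy). Ratios are of group means in FPKM. Transcripts were aligned with Biopython 1.88, counting identity over aligned bases without gaps. A planned comparison of protein sequences was not made, and transcripts were used in its place. Coordinates of the table are mm9, and those of the RefSeq promoter table are GRCm38.p6.

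The members and lists were chosen with earlier results of these data known. Named were the members, the Mup and Lcn rows, up to 4 genes per list with the smallest p, genes within 250 kb, and per member the 3 genes of highest Pearson r with a group mean of at least 5 FPKM. For the transcription factors, 1 tested gene is not reported here. Ttr, Rdh16, Apom, C8g, Cebpa, Foxa2 and Nr3c1 were added after their values were seen. The marker lists of stellate and lymphocyte cells summed to 1.69 to 2.82 and 0.0 to 0.23 FPKM. Alternatives were other pseudocounts, no filter, quantile and median scaling, a fit to 2 groups, a replicate block, plain limma, each library left out, and all Mup rows summed. Leaving out the 2 shallowest libraries was added after seeing the data.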

Additional observations from a re-analysis of the deposited data

How the results depend on the processing

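The 5 calls of members between genotypes under SR9009 kept their direction in every alternative run, and all but that of Rbp4 (quantile normalization) kept their side of the threshold. With quantile normalization the count stayed at 5 because Mup3 passed in place of Rbp4, and the count was 5 to 6 when 1 library was left out. Under the added removal of the 2 shallowest libraries it was 5.

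Counts over all genes moved more. Genes called between genotypes under SR9009 numbered 2283, and 1518 in a fit to the 2 groups alone. For SR9009 in control cells the count was 924, 376 in a fit to the 2 groups alone, 605 without the 2 shallowest libraries and 531 to 920 with 1 library left out. For SR9009 in KO-labelled cells it was 1107, and 604 to 1437 with 1 library left out. The interaction count of 3 was 1 without the filter, with quantile normalization, median scaling, plain limma or without the 2 shallowest libraries, and 0 to 5 with 1 library left out. With the replicate block it was 0 (773 at an unadjusted p under 0.05). Same-numbered libraries correlated at -0.112 to 0.122 in their deviations, and others at -0.117 to 0.181. Pairing by number was thus not seen, but these values cannot show whether libraries share mice. The replicate block made Lcn13 pass for SR9009 in control cells (adjusted p = 0.0349 in limma). With quantile normalization, SR9009 in KO-labelled cells also called Mup3 (log2 0.24, adjusted p = 0.0318) and Mup17 (log2 -0.26, adjusted p = 0.0481). The cause of these moves was not tested.

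The summed Mup level turned from -37.6% to 10.2% in DMSO and from -31.7% to 18.3% under SR9009 when only the 4 Mup members were summed, since most array rows then drop out. The SR9009 effect in KO-labelled cells was then 6.13%. In control cells that effect was 1.57% with median scaling and -4.08% to 3.53% with 1 library left out. Uncalled SR9009 effects near 0 changed sign. In control cells Mup3 ran from -0.136 to 0.0418 with 1 library left out and was 0.0418 without the 2 shallowest, Mup17 ran from -0.029 to 0.138 and was -0.0238 with quantile normalization, Mup20 ran from -0.193 to 0.0419 and was 0.0419 without the 2 shallowest, and Mup21 ran from -0.0814 to 0.133. The interaction of Mup21 ran from -0.0173 to 0.197 and was -0.0588 without the shallowest 2, and that of Rbp4 from -0.0632 to 0.0494. Ambp was 0.0553 with quantile normalization. The unknown read totals, and transcripts with little sequence of their own, limit the single array rows.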
